A study of Arabidopsis thaliana with 24 samples.

Results

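The starch sheath of cut Arabidopsis stems after 5 days on medium without auxin was compared with the starch sheath of untreated stems. The comparison uses 6 of the 24 arrays of the series, 3 in each group, and all 22746 probe sets that are not array controls. The 6 arrays were chosen by their titles, and no measured value entered the choice. The question it addresses is which transcripts of this cell layer change when a stem piece is cut and kept in culture with no auxin supplied.

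The starch sheath is a single layer of stem cells just outside the vascular bundles and the tissue between them. Its plastids hold starch grains that settle under gravity, and the layer is the shoot's counterpart of the root endodermis. When auxin moves through a stem that has no closed ring of cambium, cells in and next to this layer can divide and form cambium between the bundles. Stem pieces in culture also respond to cutting, to the loss of supply from the leaves and roots, and to the loss of auxin from the shoot tip, and these responses cannot be told apart in this comparison.

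All plants were wild type. In the first group, excised stem pieces were kept for 5 days on split plates with MS medium, a plant salt medium, and the middle part, which had not touched the medium, was frozen and sectioned. In the other group the sheath was taken from stems with no treatment. Laser capture was used to cut the sheath out of the sections, and its RNA went through a pair of amplification rounds before it was put on Affymetrix ATH1 arrays. 3 further groups serve below as context: sheath after 2 days on the same medium, and the surrounding stem tissue after 5 days on NAA, a synthetic auxin, with its own untreated control. The labels call the 3 arrays of a group biological replicates, and the sources used here do not say how many plants each holds. The p-values therefore measure the spread between arrays within a group, pooled over all 8 groups of the series. In captured tissue, fewer cells of a type and less RNA per cell cannot be told apart.

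The untreated arrays differed among themselves. The SD over probe sets was 1.00 and 0.96 on untreated replicates 2 and 3, against 1.47 on untreated replicate 1, and it ran from 1.3 to 1.50 on the arrays of 5 days on medium. The number of probe sets above a log2 value of 6 ran from 1466 to 2041 on the arrays of 5 days on medium, and it was 1983, 644 and 532 on untreated replicates 1, 2 and 3. Pairs of arrays correlated at 0.958 to 0.970 over probe sets within the group of 5 days on medium, and at 0.763 to 0.877 within the untreated group. One array of untreated surrounding stem was narrow too. Untreated replicates 2 and 3 and this array are called the 3 narrow arrays below, and the calls that end without them are named beside the results. Without them the untreated sheath is 1 array, whose spread is assumed to be that of the other groups. The GAPDH control, read at both ends of its transcript, had a 3' signal that exceeded the 5' signal by 5.52 to 6.25 on the log2 scale after 5 days on medium and by 3.93 to 4.83 in untreated sheath. The 5' signal was 2.42 to 2.78 on these arrays, under the median of all values, 3.09, so the difference mainly follows the 3' level. When the fit allowed for this difference, 327 probe sets were called, 116 of them higher and 211 lower. As its ranges in the compared groups do not overlap, the difference and the groups cannot be fully told apart in this fit.

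After 5 days on medium, 983 probe sets were higher and 460 lower than in untreated sheath, which is 4.32% and 2.02% of those tested (limma, Benjamini-Hochberg adjusted p under 0.05). At least 2-fold changes made up 851 of the higher and 183 of the lower ones. In 936 of the higher and 423 of the lower ones the 3 arrays of one group did not overlap the 3 of the other, while over all 22746 probe sets, called or not, 4511 did not overlap, 2312 of them higher and 2199 lower. Without the 3 narrow arrays 266 probe sets (1.17%) were higher and 803 (3.53%) lower, so that the share of higher calls was 24.9% in place of 68.1%, and with cyclic loess it was 49.5%. Of the calls over all arrays, 204 of the higher and 210 of the lower were also called in the same direction without the narrow arrays. In each of the 16 alternative settings, 34 higher and 18 lower calls stayed called in the same direction. When the compared groups alone were fitted, 194 probe sets were higher and 33 lower. The median change of all probe sets was -0.08 on the log2 scale over all arrays and 0.04 without the narrow ones. Of the 1443 called probe sets, 688 match a gene locus and 111 carry a gene name beyond the locus code.

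Among the 15 largest falls with a gene name were 3 genes of xylan synthesis, both pectin methylesterases described below and a glycosyl hydrolase. The 15 named falls and 15 named rises were chosen among genes whose groups did not overlap, so their lack of overlap is no separate result. Xylan is the main polysaccharide, after cellulose, of the thick secondary walls of xylem vessels and fibres. All 3 measured genes of a list of 31 xylem and fibre wall genes fell, against 2.02% of all probe sets called lower. Each of the 3 takes part in making xylan. IRX15, named for the irregular xylem of its mutants, stood at 3.05, 2.57 and 3.01 on the arrays of 5 days on medium, against 6.12, 4.60 and 4.44 on the untreated arrays. The groups did not overlap, and untreated replicate 1 was the highest of all. IRX15 fell by 2.17 ± 0.35 on the log2 scale (model SE, n = 3 each), a 4.5-fold change with an adjusted p of 0.0011. Its close relative IRX15-L stood at 2.89, 3.08 and 3.02 after 5 days on medium and at 6.68, 4.61 and 4.32 in untreated sheath, with no overlap. IRX15-L fell by 2.21 ± 0.46 (SE, adjusted p = 0.0075). GUT2, also known as IRX10, encodes a glycosyltransferase that extends the xylan backbone. It stood at 3.23, 2.85 and 2.91 after 5 days on medium, against 5.67, 3.95 and 4.94 in untreated sheath. The groups lay apart here too, and GUT2 fell by 1.86 ± 0.40 (SE, adjusted p = 0.01). All 3 were also lower without the narrow arrays, by 3.24, 3.69 and 2.68. The list's median change was -2.17, beside -0.08 over all probe sets, none of its 3 members was called when the compared groups alone were fitted, and 2 were called with the GAPDH covariate.

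Another 3 of the 15 largest named falls encode enzymes of families that act on pectin or on wall glucans. PME61, a pectin methylesterase, which removes methyl groups from pectin, stood at 3.40, 3.02 and 3.48 after 5 days on medium and at 7.44, 5.50 and 4.59 in untreated sheath. ATPMEPCRD, another gene of that family, stood at 2.47, 2.86 and 2.77 after 5 days on medium, against 6.41, 4.74 and 3.90 in untreated sheath. GH9B7, of the glycosyl hydrolase family that holds the plant cellulases, stood at 5.02, 4.68 and 4.42 after 5 days on medium, against 9.05, 7.23 and 6.14 in untreated sheath. In each of these the groups did not overlap, as the choice of genes required. Untreated replicate 1 was the highest and replicate 3 the lowest of the untreated arrays. PME61 fell by 2.54 ± 0.67 (SE, adjusted p = 0.03), ATPMEPCRD by 2.32 ± 0.40 (SE, adjusted p = 0.002) and GH9B7 by 2.77 ± 0.61 (SE, adjusted p = 0.012). Without the narrow arrays, which leaves replicate 1 as the only untreated sheath array, the changes were -4.14, -3.71 and -4.34. TBL38, of the TRICHOME BIREFRINGENCE-LIKE family of wall proteins, had the largest fall with a gene name. It stood at 2.98, 2.90 and 2.69 after 5 days on medium, against 7.93, 4.79 and 4.40 in untreated sheath. TBL38 fell by 2.85 ± 0.60 (SE, 7.2-fold, adjusted p = 0.0082), and without the narrow arrays by 5.07.

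The deepest falls belonged to genes known here by their locus code alone and singled out after their values were seen. AT1G22480 stood at 3.07, 2.44 and 4.07 after 5 days on medium and at 9.50, 8.64 and 7.47 in untreated sheath. It was 40.5-fold lower (log2 change -5.34 ± 0.82 SE, adjusted p = 0.00093). AT1G80170 stood at 4.86, 5.04 and 4.54 after 5 days on medium, against 11.56, 9.07 and 8.48 in untreated sheath. More than 3 log2 units separated the groups in both genes, and AT1G80170 was called lower in each of the 16 alternative settings. AT1G22480 was called in 15 of them, among them the fit without the narrow arrays. GH9B5, a relative of GH9B7, shows how much rests on the untreated arrays. It stood at 2.18, 2.28 and 2.23 after 5 days on medium, against 7.29, 4.28 and 2.76 in untreated sheath, and did not pass (adjusted p = 0.075), while without the narrow arrays its change of -5.06 was called.

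Of the other genes among the 15 largest named falls, JKD is described with the markers, and psbC, atpF, psbL and LHCB4.3 with the plastid. NCRK, a receptor-like kinase gene, stood at 2.58, 2.3 and 2.56 after 5 days on medium and at 4.19, 4.07 and 3.32 in untreated sheath, and it fell by 1.38 ± 0.23 (SE, adjusted p = 0.0017). AGO7, an argonaute that makes trans-acting small RNAs, fell by 1.65 ± 0.40 (SE, adjusted p = 0.018). CPUORF47, a transcript with a conserved upstream reading frame, fell by 1.14 ± 0.25 (SE, adjusted p = 0.011). The 15 named falls ran from 2.2-fold to 7.2-fold. Of these 15, 13 were also called without the narrow arrays, LHCB4.3 and JKD being the exceptions, and 14 changed by more there than over all arrays. Untreated replicate 1 had the highest value of the untreated arrays in 14 of them.

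**Figure D1:**
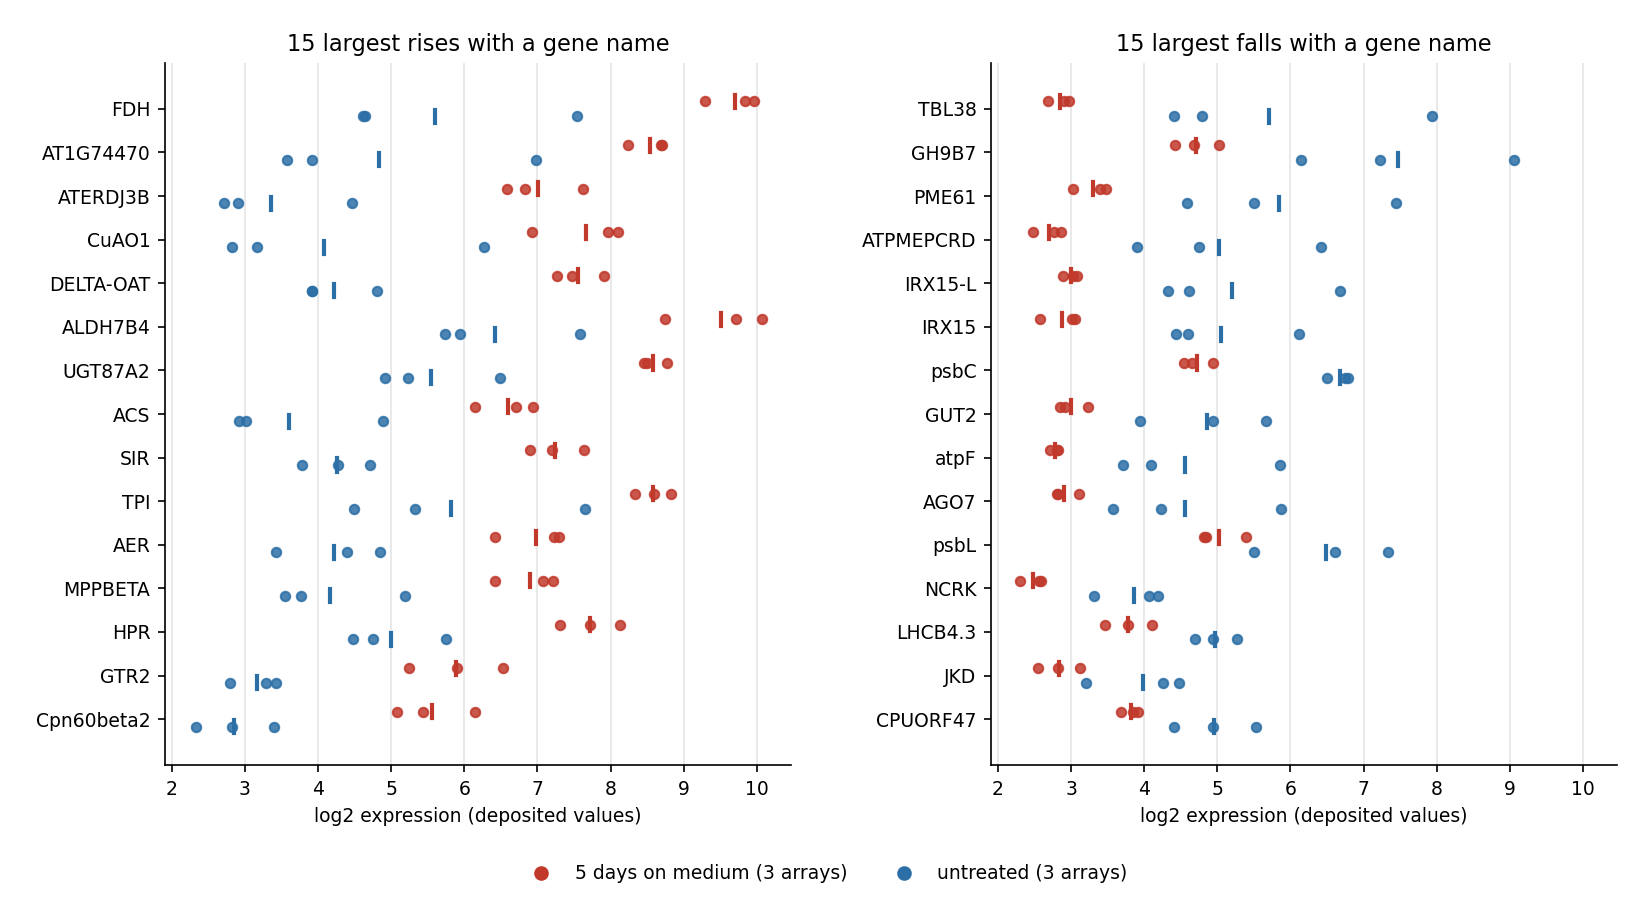
Log2 expression on each array for the 15 largest rises (left) and the 15 largest falls (right) among called probe sets with a gene name, with 5 days on medium in red above untreated sheath in blue. Points are single arrays and bars are means over 3 arrays. Genes were chosen so that the red and blue points of a row do not overlap, and untreated replicate 1 is the highest blue point in 11 of the 15 rises and 14 of the 15 falls.

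The largest named rises included enzymes of mitochondria, of amino acid and sulfur metabolism and of detoxification. FDH, the mitochondrial formate dehydrogenase, had the largest. It stood at 9.83, 9.97 and 9.29 after 5 days on medium, against 7.54, 4.65 and 4.62 in untreated sheath. The groups did not overlap, and the narrow untreated arrays lay nearly 3 log2 units under untreated replicate 1. FDH rose by 4.09 ± 0.72 (SE, 17.1-fold, adjusted p = 0.0023), and its change without the narrow arrays was 2.15, which was not called. DELTA-OAT, the ornithine aminotransferase that feeds ornithine carbon toward glutamate, stood at 7.47, 7.91 and 7.27 after 5 days on medium and at 4.80, 3.91 and 3.92 in untreated sheath. Here the 3 untreated arrays lay within 1 log2 unit of each other, and DELTA-OAT rose by 3.34 ± 0.49 (SE, 10.1-fold, adjusted p = 0.00075). It was also called without the narrow arrays, with a change of 2.75.

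SIR, the sulfite reductase that supplies sulfide for cysteine, stood at 7.64, 6.90 and 7.20 after 5 days on medium, against 3.79, 4.71 and 4.27 in untreated sheath. AER, an alkenal reductase that removes reactive carbonyls, stood at 7.29, 6.42 and 7.23 after 5 days on medium, against 3.43, 4.85 and 4.39 in untreated sheath. UGT87A2, a UDP-glucosyl transferase, stood at 8.77, 8.45 and 8.50 after 5 days on medium, against 5.22, 4.91 and 6.49 in untreated sheath. In these 3 genes untreated replicate 1 was not the highest untreated array, and the changes without the narrow arrays were larger than over all arrays. SIR rose by 2.99 ± 0.60 (SE, adjusted p = 0.0057), AER by 2.76 ± 0.51 (SE, adjusted p = 0.0034) and UGT87A2 by 3.03 ± 0.45 (SE, adjusted p = 0.00079). Without the narrow arrays the changes were 3.46, 3.55 and 3.35, and all 3 were called. MPPBETA, a subunit of the peptidase that trims proteins on entry into mitochondria, rose by 2.74 ± 0.39 (SE, adjusted p = 0.00061) and was called without the narrow arrays with a change of 1.72.

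The other 9 of the 15 largest named rises were called over all arrays and not without the narrow ones. They include the stress-related aldehyde dehydrogenase ALDH7B4 (8.5-fold), the copper amine oxidase CuAO1, which breaks down polyamines (12-fold), the acetyl-CoA synthetase ACS (7.9-fold) and the endoplasmic reticulum co-chaperone ATERDJ3B (12.5-fold). They also include the glycolytic triose phosphate isomerase TPI (6.8-fold), the glucosinolate transporter GTR2 (6.6-fold) and the plastid chaperonin subunit Cpn60beta2 (6.5-fold). AT1G74470, a geranylgeranyl reductase of chlorophyll and tocopherol synthesis, rose 13.2-fold (adjusted p = 0.034), and without the narrow arrays its change was 1.57. The last is HPR, described with the photosynthetic genes. Among genes known here by locus code and singled out after their values were seen, 3 rises were called in each of the 16 alternative settings. AT5G52450 stood at 8.71, 8.35 and 8.09 after 5 days on medium, against 4.64, 2.99 and 4.98 in untreated sheath (18.1-fold, adjusted p = 0.0002). AT2G25450 stood at 9.73, 9.52 and 8.89 after 5 days on medium, against 5.95, 5.13 and 5.84 in untreated sheath (13.3-fold, adjusted p = 0.00057). AT5G05600, a member of the jasmonate and wounding list, stood at 9.54, 10.22 and 9.18 after 5 days on medium, against 5.84, 5.92 and 6.32 in untreated sheath (12.3-fold, adjusted p = 0.0022). In all 3 the lowest array of 5 days on medium lay far above the highest untreated one.

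**Figure D2:**
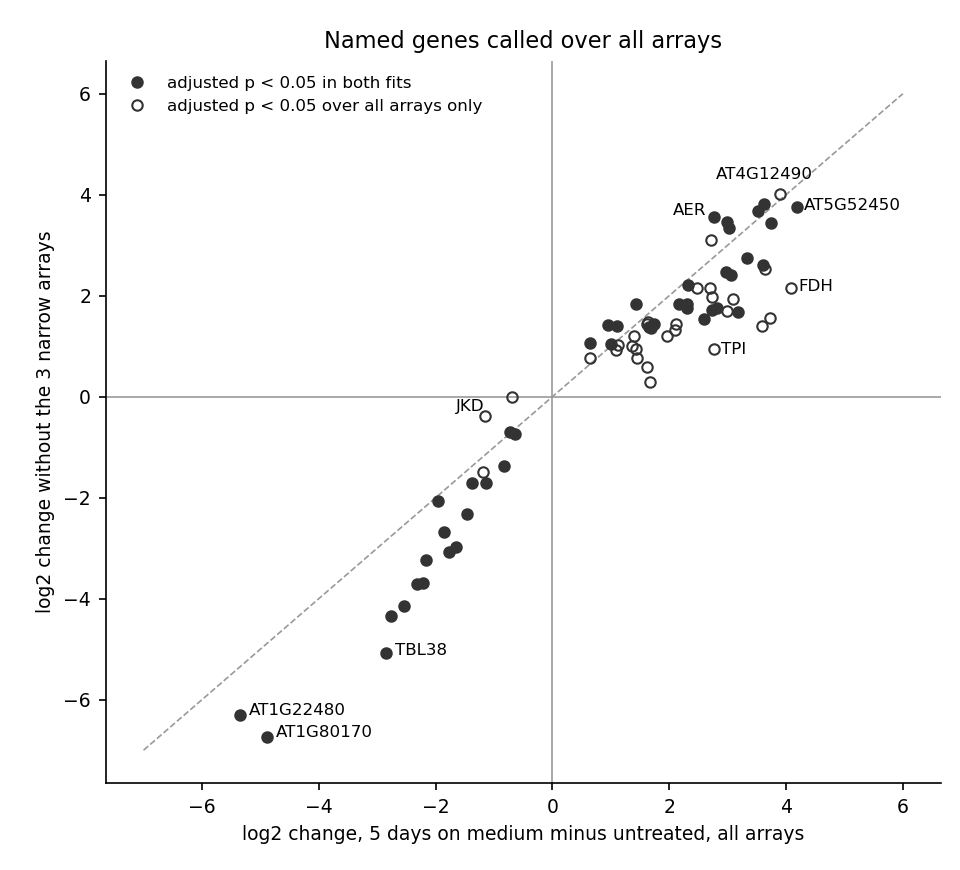
Log2 change of each named gene that was called over all arrays, 5 days on medium minus untreated sheath, over all arrays (horizontal) and without the 3 narrow arrays (vertical). Filled points were called in both fits and open points over all arrays alone, and on the dashed line both changes are equal. Most falls lie under the line, as TBL38 does with -2.85 and -5.07, and many rises do too, as FDH does with 4.09 and 2.15.

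Many genes of cytosolic ribosomal proteins, which build the ribosomes that translate nuclear transcripts, rose and none fell. Of 77 measured genes on a list of the large subunit 37 rose and none fell, and of 44 of the small subunit 21 rose and none fell, against 4.32% of all probe sets called higher. The loci were put on these lists from general knowledge of the Arabidopsis ribosome, since the annotation used here gives a locus code alone for all but PGY1, the large subunit gene also called PIGGYBACK1. At unadjusted p under 0.05, for which no share of all probe sets is given, the lists held 53 and 32 rises and no falls. Their median changes were 1.60 and 1.24, beside -0.08 over all probe sets. The mean log2 level of the large subunit list was 5.69, 6.43 and 5.66 after 5 days on medium, against 5.02, 4.24 and 4.2 in untreated sheath. That of the small subunit list was 6.14, 6.73 and 5.92 after 5 days on medium, against 5.24, 4.57 and 4.5 in untreated sheath. The groups did not overlap in either list, and the array of 5 days on medium nearest to untreated sheath lay within 1 log2 unit of untreated replicate 1.

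Single members followed the lists. AT3G04840 stood at 8.00, 8.00 and 7.28 after 5 days on medium, against 5.29, 4.49 and 4.59 in untreated sheath, and rose 7.8-fold (adjusted p = 4.4e-05). AT5G52650 stood at 8.70, 9.42 and 8.61 after 5 days on medium, against 6.49, 5.42 and 5.62 in untreated sheath, and rose 8.4-fold (adjusted p = 0.00011). PGY1 stood at 7.03, 8.10 and 7.06 after 5 days on medium, against 5.25, 4.84 and 4.67 in untreated sheath, and rose 5.6-fold (adjusted p = 0.0058), a call that ended without the narrow arrays. These are 3 genes without overlap between groups, the first 2 of them called in each alternative setting. Without the narrow arrays 14 large subunit genes were called higher and 1 lower, and 10 small subunit genes were called higher and none lower, with medians of 0.96 and 0.83. With the compared groups alone 6 and 5 genes were called, without medium replicate 2 they were 18 and 14, and without untreated replicate 2 they were 20 and 15, all higher. Large subunit calls also dropped to 23 without untreated replicate 3. With cyclic loess 18 and 11 genes were called, all higher, and with the GAPDH covariate 2 and 4, all higher. Ribosomal proteins are encoded by families of near-identical genes, and a probe set may read more than 1 copy. On the list of plastid ribosomal proteins encoded in the nucleus 2 of 9 rose and none fell, and none was called without the narrow arrays.

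Of 5 measured starch genes 3 rose, APL3, SBE2.2 and DPE1, and none fell, against 4.32% of all probe sets called higher. SBE2.2, a starch branching enzyme, stood at 5.73, 5.82 and 5.47 after 5 days on medium, against 4.24, 3.26 and 3.16 in untreated sheath. APL3, a subunit of ADP-glucose pyrophosphorylase, which makes the glucosyl donor for starch, stood at 6.16, 6.69 and 6.47 after 5 days on medium, against 5.23, 3.79 and 4.44 in untreated sheath. DPE1, a plastid enzyme that recycles maltotriose in starch breakdown, stood at 4.14, 5.30 and 5.30 after 5 days on medium, against 3.48, 3.58 and 2.82 in untreated sheath. In all 3 genes every array of 5 days on medium lay above every untreated one. The rises were 2.12 ± 0.45 for SBE2.2 (SE, adjusted p = 0.0092), 1.95 ± 0.49 for APL3 (SE, adjusted p = 0.024) and 1.62 ± 0.44 for DPE1 (SE, adjusted p = 0.035). None was called without the narrow arrays, where the changes were 1.43, 1.21 and 1.43. With the compared groups alone 1 of the 3 was called, and also 1 without medium replicate 2, medium replicate 3, untreated replicate 2 or untreated replicate 3. Without untreated replicate 1, 4 starch genes were called, in a setting where 2373 of all 22746 probe sets were called higher. With the GAPDH covariate no starch gene was called, and the list's median change was 0.94 in place of 1.62. PWD and AMY1, which act in starch breakdown, changed by 1.15 and -0.35 and did not pass.

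Photosynthetic genes of the nucleus split. ATPC1, the gamma subunit of the plastid ATP synthase, stood at 9.29, 9.77 and 9.41 after 5 days on medium, against 8.11, 8.00 and 7.40 in untreated sheath. It rose by 1.66 ± 0.28 (SE, adjusted p = 0.0015) with no overlap, and was called without the narrow arrays as well. HPR, the peroxisomal hydroxypyruvate reductase of photorespiration, stood at 7.30, 8.13 and 7.72 after 5 days on medium, against 5.75, 4.75 and 4.48 in untreated sheath, and rose 6.6-fold (adjusted p = 0.0049). LHCB4.3, an antenna protein of photosystem II, went the other way, with 3.46, 3.78 and 4.11 after 5 days on medium, against 5.27, 4.94 and 4.69 in untreated sheath. LHCB4.3 fell by 1.18 ± 0.31 (SE, adjusted p = 0.029). In all, 2 of 9 measured genes of the light reactions rose and 1 fell, and 1 of 6 of the Calvin cycle and photorespiration rose. Over all probe sets 4.32% were called higher and 2.02% lower. ATPC1 alone was called without the narrow arrays among the light reactions, and none of the Calvin list was, whose median was 0.95 over all arrays and -0.03 there. The median of the light reaction list was 0.57 over all arrays and turned to -0.65 without the narrow arrays. It was -0.57 with cyclic loess, -0.31 with quantile normalization and -0.80 with the GAPDH covariate. With cyclic loess 3 members were called lower, with quantile normalization 1 was, and with the GAPDH covariate none. No member, ATPC1 included, was called higher in any of those settings. RCA, which activates Rubisco, stood at 7.69, 7.90 and 7.45 after 5 days on medium and at 7.67, 6.84 and 5.98 in untreated sheath, with overlap, and did not pass (adjusted p = 0.19). PORB, a protochlorophyllide reductase of chlorophyll synthesis, rose by 1.43 ± 0.40 (SE, adjusted p = 0.041), and its change of 0.94 without the narrow arrays was not called.

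Few transcripts of the plastid genome were called. Of 69 measured plastid genes 5 fell and none rose, against 2.02% of all probe sets called lower, and the list's median change was -0.35. psbC, a core protein of photosystem II, stood at 4.54, 4.66 and 4.95 after 5 days on medium, against 6.78, 6.75 and 6.50 in untreated sheath. The 3 untreated arrays, narrow or not, lay within 0.3 log2 units of each other, and psbC fell by 1.96 ± 0.41 (SE, adjusted p = 0.0077). atpF, of the plastid ATP synthase, stood at 2.71, 2.81 and 2.82 after 5 days on medium, against 5.86, 4.1 and 3.71 in untreated sheath, and fell by 1.78 ± 0.37 (SE, adjusted p = 0.0077). psbL, a small photosystem II subunit, fell by 1.46 ± 0.38 (SE, adjusted p = 0.028), accD, of fatty acid synthesis, by 0.65 (adjusted p = 0.036) and rpl14, of the plastid ribosome, by 0.66 (adjusted p = 0.038), of which rpl14 was not called without the narrow arrays. Without the narrow arrays the list's median change was -0.47, beside 0.04 over all probe sets. With cyclic loess 4 plastid genes were called lower and 1 higher, with quantile normalization 5 and 1, and with the GAPDH covariate none was called. The compared groups alone gave 1 lower call, and leaving out medium replicate 1, 2 or 3 gave 3, 2 and 2, all lower. Leaving out untreated replicate 1 gave 10 lower and 2 higher, in a setting where 3243 of all 22746 probe sets were called lower and 2373 higher.

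Lists on hormones, stress and growth gave few calls, beside 4.32% of all probe sets called higher and 2.02% called lower. Of 9 auxin response genes and 5 Aux/IAA repressors none was called in either direction (limma), and at unadjusted p under 0.05 these lists held 3 and 1 falls and no rises. GH3.3, an auxin-induced enzyme that joins auxin to amino acids, stood at 2.2, 2.56 and 2.37 after 5 days on medium, against 5.75, 4.90 and 4.03 in untreated sheath. The groups did not overlap, and its change of -2.51 ± 0.83 (SE) did not pass (adjusted p = 0.076). HAT2, an auxin-induced homeobox gene, had means of 6.08 after 5 days on medium and 7.79 in untreated sheath, and did not pass (adjusted p = 0.13). None of 11 autophagy genes, 12 genes of low oxygen, 3 of the cell cycle, 16 of mitosis and cytokinesis or 8 histones was called. At unadjusted p under 0.05 these 5 lists held 0, 2, 0, 0 and 1 rises and 2, 0, 0, 1 and 1 falls. For these counts and those of the auxin lists, the share of all probe sets at this threshold is not given. PPDK, which recovers carbon from pyruvate, was the 1 riser among 7 genes of carbon starvation, by 2.1 ± 0.52 (SE, adjusted p = 0.022), and it was not called without the narrow arrays. There the list held no rises and 2 falls, MCCA by 2.88 and ETFQO by 0.95, both of the breakdown of branched-chain amino acids, and its median was -0.09 in place of 0.39. Of 15 wall loosening genes EXGT-A3, the xyloglucan endotransglucosylase also called XTH27, rose, and none fell. EXGT-A3 stood at 8.53, 8.47 and 8.06 after 5 days on medium, against 6.53, 5.85 and 5.76 in untreated sheath, a rise of 4.95-fold (adjusted p = 0.00093) that was also called without the narrow arrays. Of 5 genes on the jasmonate and wounding list 2 rose and 1 fell, AT5G05600 and AT2G38240 against AT3G11180.

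Single genes were called on other lists, beside 4.32% of all probe sets called higher and 2.02% called lower. AT4G22470, on a list of hybrid proline-rich proteins of the cell wall, stood at 6.37, 6.13 and 6.46 after 5 days on medium, against 2.65, 3.21 and 2.52 in untreated sheath. Its groups lay far apart, and its rise of 3.53 ± 0.57 (SE, adjusted p = 0.0012) was called in each of the 16 alternative settings. AT4G12490, on the same list, stood at 7.34, 7.77 and 3.44 after 5 days on medium, against 2.17, 2.42 and 2.29 in untreated sheath. The array at 3.44 stood far below the other arrays of its group, and AT4G12490 rose by 3.89 ± 0.98 (SE, adjusted p = 0.024), a call that ended without the narrow arrays. These are the 2 risers among 9 measured genes of the list, and none fell. COR15B, a cold-induced protein of the plastid, stood at 2.80, 3.00 and 2.80 after 5 days on medium, against 4.24, 3.38 and 3.46 in untreated sheath. COR15B fell by 0.82 ± 0.20 (SE, adjusted p = 0.022), as the 1 called gene of 5 on the list of abscisic acid and water stress. Of 6 heat shock genes AT3G09440 rose by 1.13 ± 0.23 (SE, adjusted p = 0.0059), and its change of 1.02 without the narrow arrays was not called. Of 55 class III peroxidases, which act on the cell wall and on peroxide, AT5G39580 rose by 0.96 and AT5G24070 fell by 0.70. These single calls are no more than the shares of all probe sets called higher and lower. Without the narrow arrays AT5G39580 was called with a change of 1.42, while AT5G24070 was not, with a change of -0.01. Genes that passed without the narrow arrays alone show the weight of untreated replicate 1. HCT, an enzyme of lignin precursors, stood at 6.99, 6.69 and 6.67 after 5 days on medium, against 9.29, 6.43 and 5.62 in untreated sheath, so that the groups overlapped. Its change was -0.33 over all arrays, which did not pass, and -2.51 without the narrow ones, which was called. SIM, an inhibitor of the cell cycle, changed by -1.0 over all arrays and did not pass (adjusted p = 0.16), and by -1.99 without the narrow arrays, which was called.

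Markers could be read for few cell types, since many defining genes have no probe set with a gene name here, SCR among them. Over all probe sets 4.32% were called higher and 2.02% lower, and the counts of called markers stand beside these shares. For the starch sheath 2 markers were read. JKD, a zinc finger regulator known from the ground tissue of the root, stood at 2.55, 2.82 and 3.12 after 5 days on medium, against 3.21, 4.25 and 4.48 in untreated sheath. The groups lay side by side with little room between them, and JKD fell by 1.15 ± 0.27 (SE, adjusted p = 0.017), with a change of -0.37 that was not called without the narrow arrays. AT5G41920, the other marker on that list, changed by 0.46 and did not pass (adjusted p = 0.11). The values of JKD after 5 days lay at or under the median of all values, 3.09, apart from 1 array just above it, and with 2 markers read the label of the tissue could not be checked further. The 3 xylem and fibre genes described above had a mean log2 level of 2.83 to 3.06 after 5 days on medium and of 4.39 to 6.16 in untreated sheath. Whether a share of vascular or fibre cells in the captured untreated sheath has a part in this or in the other falls was not tested. Of 4 phloem markers none was called. CLE44, a phloem peptide that keeps cambium cells dividing, stood at 3.39, 3.34 and 3.87 after 5 days on medium, against 6.52, 4.87 and 5.27 in untreated sheath, and did not pass (adjusted p = 0.067), while without the narrow arrays its change of -2.99 was called. Of 4 cambium genes LHW, a regulator of vascular cell divisions, rose by 1.63 ± 0.29 (SE, adjusted p = 0.0024), and its change of 1.48 without the narrow arrays was not called. MOL1, a receptor-like kinase of the cambium, stood at 3.13, 3.02 and 2.83 after 5 days on medium, against 3.01, 3.08 and 2.80 in untreated sheath, with overlap. The 1 epidermis marker read, WSD1, changed by -0.26 and did not pass.

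Sheath after 2 days on medium was set against the same untreated arrays, so the values at 2 and 5 days share a control and are given side by side. At 2 days 904 probe sets (3.97%) were higher and 220 (0.967%) lower than in untreated sheath, and without the narrow arrays 335 were higher and 867 lower. The large and small subunit ribosomal lists held 45 and 28 rises at 2 days and 37 and 21 at 5 days, with medians of 1.88 and 1.87 at 2 days and 1.60 and 1.24 at 5 days. Without the narrow arrays these medians were 1.27 and 1.43 at 2 days and 0.96 and 0.83 at 5 days. The mean level of the large subunit list was 6.0 to 6.77 at 2 days and 5.66 to 6.43 at 5 days, so these ranges overlap. IRX15 changed by -2.04 at 2 days and by -2.17 at 5 days, and TBL38 by -2.66 at 2 days and by -2.85 at 5 days, all called. GUT2 changed by -0.97 at 2 days, which was not called, and by -1.86 at 5 days. FDH changed by 1.97 at 2 days, not called, and by 4.09 at 5 days.

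**Figure D3:**
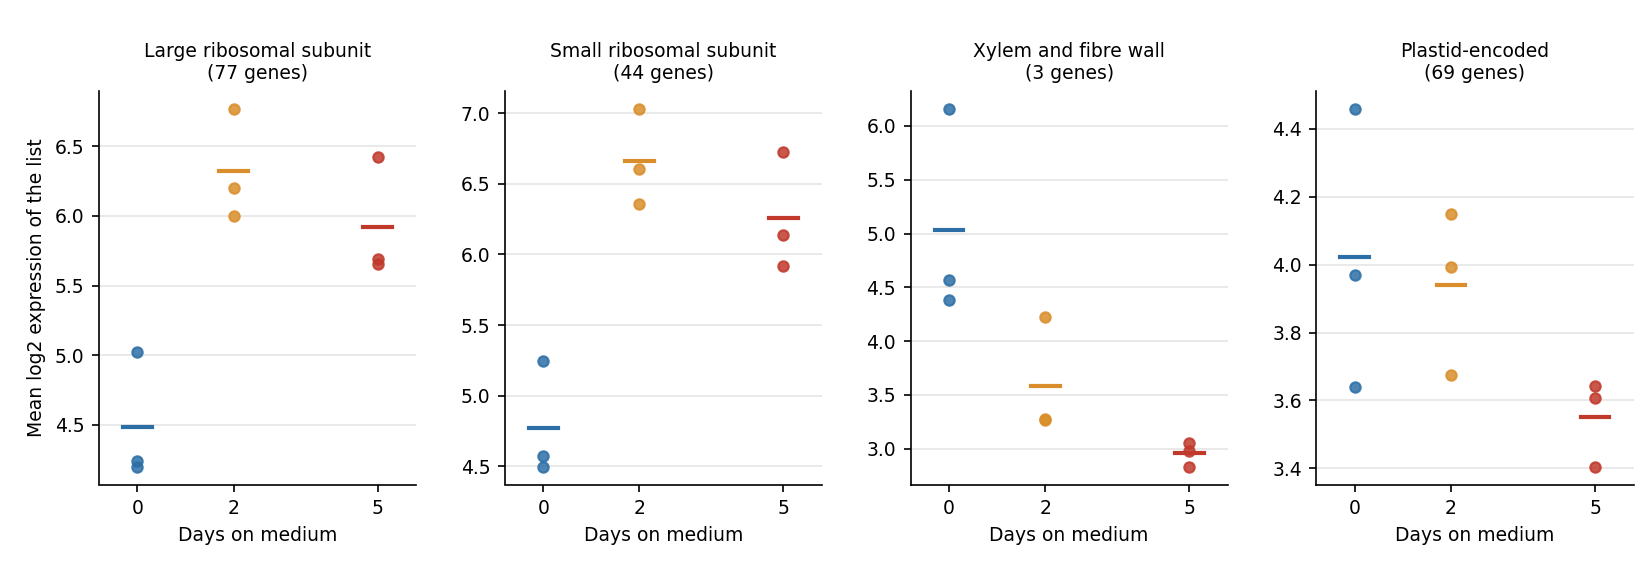
Mean log2 expression of 4 gene lists in the starch sheath at 0 days (untreated, blue), 2 days (orange) and 5 days (red) on medium, with 1 point for each array and bars for means over 3 arrays. Vertical scales differ between panels. Both ribosomal lists lie higher at 2 and 5 days than at 0 days on every array, and the 3 xylem and fibre wall genes lie lower.

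A direct test of 5 days against 2 days on medium, which does not use the untreated arrays, called 69 probe sets (0.303%), 33 higher and 36 lower at 5 days. Of these 26 match a gene locus and 8 of those also differed from untreated sheath at 5 days. AT1G77940, on the large subunit list, was lower at 5 days than at 2 days by 1.76 ± 0.30 (SE, adjusted p = 0.015), while it stood above untreated sheath at both times, by 4.05 at 2 days and 2.3 at 5 days. AT3G10610 and UPP, a uracil phosphoribosyltransferase of pyrimidine salvage, followed the same course, with 5 day minus 2 day changes of -1.69 and -0.90. AT3G56200, AT5G37360, AT5G18840, WNK9 and AT5G46710 were higher at 5 days than at 2 days, by 2.02, 1.60, 1.21, 1.17 and 0.78. Against untreated sheath at 5 days AT3G10610, UPP and AT3G56200 were not called without the narrow arrays, and the other 5 were. WNK9, of a family of protein kinases without the usual catalytic lysine, stood at 3.34, 4.14 and 4.13 after 5 days on medium, against 2.47, 2.68 and 3.12 in untreated sheath. TBL39 and NANA, singled out after their values were seen, were at their highest at 2 days. TBL39 averaged 7.74 at 2 days and 4.69 at 5 days, against 4.2 untreated, and NANA, an aspartic protease gene, averaged 7.03 at 2 days and 4.19 at 5 days, against 3.95 untreated.

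The surrounding stem after 5 days on NAA, set against its own untreated control, shares no array with the sheath comparison, though it differs in both tissue and auxin. In the stem 540 probe sets (2.37%) were higher and 370 (1.63%) lower. Of the 983 sheath rises 196 were also called higher in the stem, which is 19.9% of the sheath's and 36.3% of the stem's, and 11 were called lower there. Of the 460 sheath falls 78 were also called lower in the stem, 17% of the sheath's and 21.1% of the stem's. Without the narrow arrays 71 of 266 sheath rises and 326 of 803 sheath falls were called in the same direction in the stem, where 485 probe sets were higher and 960 lower. The large and small subunit ribosomal lists had medians of 1.60 and 1.24 in the sheath and 1.00 and 1.06 in the stem. A test of the difference between both changes called 200 probe sets (0.879%), 129 with the higher change in the sheath and 71 with the higher change in the stem. Leaving out the narrow arrays, 62 were higher in the sheath and 133 in the stem. Of the 77 large subunit and 44 small subunit genes 1 each was among the 200.

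BCAT4, of glucosinolate synthesis, and several photosynthetic genes had the higher change in the sheath on medium. BCAT4, the branched-chain aminotransferase that opens the chain elongation of methionine for glucosinolates, stood at 9.87, 8.99 and 9.17 in sheath after 5 days on medium, against 9.72, 7.15 and 6.03 in untreated sheath. In the stem it stood at 3.5, 3.01 and 3.44 after 5 days on NAA, against 13.11, 10.99 and 8.96 untreated. The sheath arrays overlap and the stem arrays do not, and the sheath change exceeded the stem change by 9.41 ± 1.45 (SE, adjusted p = 0.0025). HPR rose in the sheath and fell in the stem, with changes of 2.73 and -2.33 (difference 5.05 ± 0.75 SE, adjusted p = 0.0019). ATPC1 changed by 1.66 in the sheath and -1.23 in the stem (adjusted p of the difference 0.0008), and RCA by 0.85 and -1.93 (adjusted p of the difference 0.018). GSTU20, a glutathione transferase, changed by 1.58 in the sheath and -3.35 in the stem (adjusted p of the difference 0.0088). SBE2.2 changed by 2.12 in the sheath and -0.93 in the stem (adjusted p of the difference 0.027), a difference that was not called without the narrow arrays. Without these arrays the differences of BCAT4, HPR, ATPC1, RCA and GSTU20 were called, at 8.36, 4.69, 2.88, 2.34 and 5.15.

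GH3.3, CLE44, OSM34 and genes of the low oxygen list had the higher change in the stem on NAA. GH3.3 changed by -2.51 in the sheath on medium and 3.6 in the stem on NAA, a difference of -6.12 ± 1.17 (SE, adjusted p = 0.017) that was not called without the narrow arrays. CLE44 changed by -2.02 in the sheath and 2.52 in the stem (difference -4.53 ± 0.91 SE, adjusted p = 0.02). Of the 12 genes on the low oxygen list none was called in the sheath. In the stem 7 of them rose, against 2.37% of all probe sets, and for 3 the difference itself was called, against 0.879%. One of these, AT5G10040, stood at 2.58, 2.47 and 2.91 in sheath after 5 days on medium, against 2.64, 2.79 and 2.82 in untreated sheath. In the stem AT5G10040 stood at 8.83, 8.51 and 9.91 after 5 days on NAA, against 2.41, 2.56 and 2.85 untreated (adjusted p of the difference 3.1e-09). OSM34, an osmotin gene induced in defence, changed by 0.90 in the sheath and 5.30 in the stem (difference -4.40 ± 0.66 SE, adjusted p = 0.0019). Leaving out the narrow arrays, the differences of CLE44, AT5G10040 and OSM34 were called, at -4.87, -6.59 and -4.24, and 2 genes of the low oxygen list were.

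**Figure D4:**
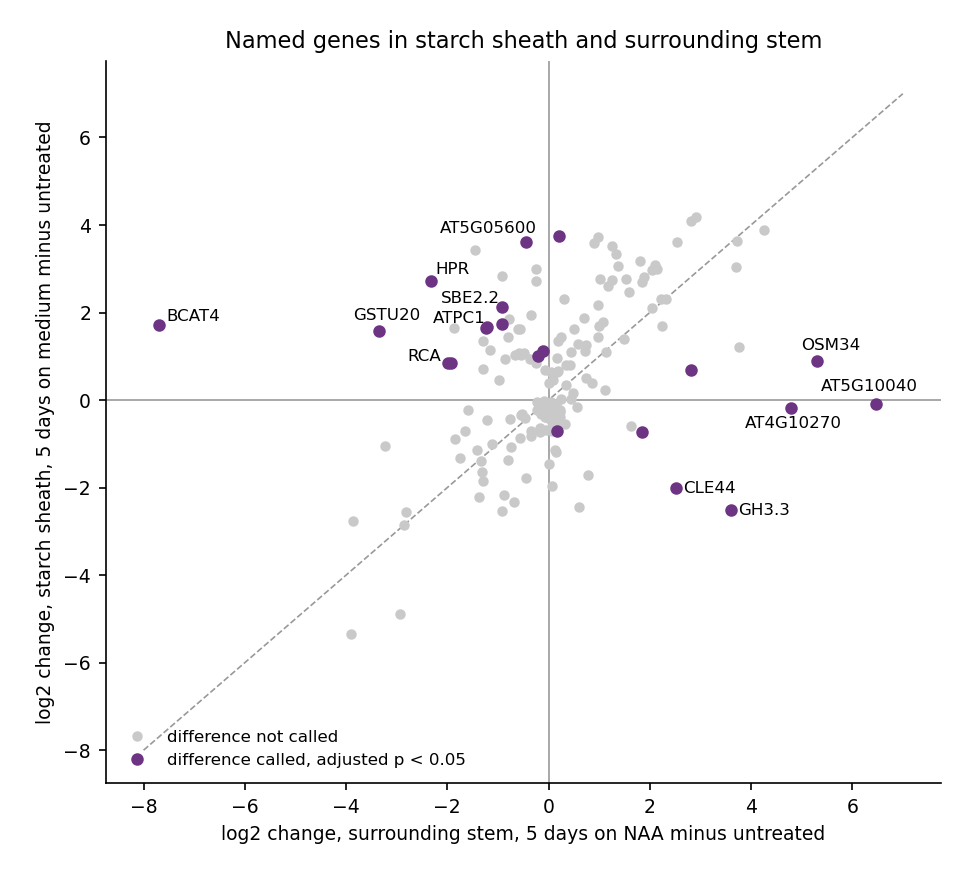
Log2 change of each named gene in the starch sheath, 5 days on medium minus untreated (vertical), and in the surrounding stem, 5 days on NAA minus untreated (horizontal). Purple points are genes whose changes differed at an adjusted p under 0.05, grey points are the other named genes, and on the dashed line both changes are equal. BCAT4 lies at 1.71 and -7.70, and AT5G10040 at -0.10 and 6.48.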

How the data were processed

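The authors deposited log2 expression values of 24 arrays in 1 table. RMA and limma are the tools in the submitters' processing notes, which give no versions. That the scale is log2 was taken from RMA and the range of the values, and the table does not write the base. No source used here says why arrays differ in spread. Scanner files were not used here.

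Of 22810 probe sets 64 are controls. Of the 22746 tested, 13513 name 1 gene, 503 several and 8730 none in the platform annotation, and 13436 matched a locus of TAIR10.1, 11885 of them with a locus code as symbol. Where a gene had several probe sets (144 genes), the one with the highest mean was used. No sequences are printed.

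limma 3.58.1 in R 4.3.3 (statmod 1.5.0) fitted 1 mean for each of the 8 groups over all arrays, with eBayes (prior degrees of freedom 2.55, residual 16). Tests are two-sided, and p-values were adjusted over all probe sets by the Benjamini-Hochberg method, with a threshold of 0.05. The fit was tested on simulated data. Differences and errors are on the log2 scale. Lists are described by counts and medians, with no set test. The alternatives were a fit of the compared groups alone, the replicate number as a block, no dim probe sets (highest group mean under 3.09), quantile normalization, cyclic loess, weights per array, eBayes with trend and robust settings, calls of at least 2-fold, GAPDH as a covariate, the fit without the 3 narrow arrays, and leaving out each array.

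Named genes are the 15 largest rises and falls that were called, carry a name and do not overlap between groups, up to 4 members of each list with the smallest p, 10 fixed names (SCR and ADH1 have no named probe set), and up to 10 genes called both against untreated and against 2 days. PGY1, TBL39, NANA, GSTU20, GH9B5, AT5G10040, AT4G10270, AT1G22480, AT1G80170, AT5G52450, AT2G25450, rpl14, AMY1, MCCA and ETFQO were taken up beyond the rule or after their values were seen. The members, the lists and the tests were chosen with earlier results of these data known. Once the annotation had been seen, 9 lists were added, among them the ribosomal, mitosis, hybrid proline-rich and class III peroxidase lists. The loci of the ribosomal and mitosis lists come from general knowledge.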

Additional observations from a re-analysis of the deposited data

Results flagged for a closer look

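A test of the difference between the 5 day change of the sheath on medium and that of the surrounding stem on NAA called 200 probe sets, and tissue and auxin cannot be told apart in it. Among the genes named here the sheath change was the higher one, by the log2 difference given, for BCAT4 (9.41), HPR (5.05), GSTU20 (4.93), AT5G05600 (4.06), AT2G25450 (3.54), SBE2.2 (3.04), ATPC1 (2.89), AT4G01150 (2.88), PSAE-1 (2.83), RCA (2.79), AT5G37360 (2.66), WNK9 (1.22) and AT5G46710 (1.21). The stem change was the higher one for AT5G10040 (-6.57), GH3.3 (-6.12), AT4G10270 (-4.97), CLE44 (-4.53), OSM34 (-4.40), AT3G10040 (-2.56), CHI (-2.13) and AT3G11180 (-0.88). Without the 3 narrow arrays the differences of AT5G05600, AT2G25450, SBE2.2, AT4G01150, PSAE-1, WNK9, GH3.3, AT3G10040 and CHI were not called, and those of the other genes were. AT4G01150, also known as CURT1A, and PSAE-1 belong to the light reactions, and CHI is a chitinase gene. Groups of 3 arrays were not searched for single outlying values.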

How the results depend on the processing

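The count of 1443 probe sets that differed between 5 days on medium and untreated sheath became 227 with the compared groups alone, 4312 with array weights and 327 with the GAPDH covariate, and it ran from 518 (without medium replicate 2) to 5616 (without untreated replicate 1) when single arrays were left out. Without untreated replicates 2 and 3 in turn it was 641 and 866, and without medium replicates 1 and 3 it was 675 and 979. At 2 days the count of 1124 became 154 with the compared groups alone, 1765 with quantile normalization, 2890 with array weights and 359 with the GAPDH covariate, and ran from 622 to 4376 with single arrays left out. For 5 days against 2 days the count of 69 became 112 with the compared groups alone, 171 with quantile normalization, 169 with cyclic loess, 477 with array weights, 718 with the GAPDH covariate and 150 without the narrow arrays, and ran from 18 to 48 with single arrays left out. For sheath against stem the count of 200 became 114 with the compared groups alone, 384 with quantile normalization, 3620 with array weights and 505 with the GAPDH covariate, and ran from 86 to 2245 with single arrays left out. The causes of these shifts were not tested. The share of higher calls at 5 days, 68.1%, was 59.9% with quantile normalization, 49.5% with cyclic loess, 35.5% with the GAPDH covariate and 24.9% without the narrow arrays. Same-numbered arrays of both groups deviated from their group means with correlations of -0.18, -0.31 and 0.33, so the numbers were not taken as pairs, and with the replicate number as a block the 4 counts were 1462, 1200, 86 and 198. No named gene that was called changed sign under these alternatives. With 3 arrays a group, 2 of the untreated ones narrow, the number of arrays limits the precision.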
